A study of Mus musculus with 15 samples.

Results

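The genes described here are 10 immediate early response genes, Egr1, Fos, Jun, Junb, Jund, Ier2, Dusp1, Atf3, Myc and Klf6, chosen by symbol and matched to Ensembl identifiers with the GENCODE vM21 annotation. They are 10 of the 55401 identifiers in the count files, and all 10 were among the 21009 genes with enough counts to be tested. The RNA came from germinal vesicle oocytes of Kunming mice. The labels of the whole series give an age of 12 to 14 days. The study states that age for the mice whose follicles were cultured, and it ties no donor age to the IVV libraries. Each library was made from 6 pooled oocytes amplified with SMART-Seq2, a full-length cDNA method primed on the poly(A) tail. The 15 libraries formed 5 groups of 3. IVV oocytes had grown in vivo and were taken by puncture of antral follicles. The other groups held oocytes of single preantral follicles dissected from the ovary and grown in vitro (IVG), either to day 6 or to day 10, in medium with follicle-stimulating hormone, fetuin, insulin, transferrin, selenium and albumin, and the IVG-NT groups had neurotrophin-4 (NT-4), a ligand of the TRKB receptor, in that medium as well. No genetic change is named in the labels. The comparisons address how growth in culture, the day of culture and NT-4 go with the oocyte transcriptome.

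Immediate early genes are the genes that cells transcribe first after a growth factor, hormone or stress signal, from transcription factors already present and without new protein synthesis. Their RNAs are usually short-lived, and many code for transcription factors (FOS, JUN and ATF3 family members pair into AP-1 dimers, while EGR1 and KLF6 are zinc-finger proteins) or for proteins that end the signal, such as the MAP kinase phosphatase DUSP1. The growing oocyte is transcriptionally active and falls silent near full size, so its RNA holds what was made and stored earlier, while the surrounding granulosa cells induce Egr1, Fos and Jun strongly in response to gonadotropins.

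Total counts ran from 5.95 to 55.6 M per library, and 2 libraries stood apart: IVG-NT day 6 replicates 1 and 2 had 5.95 and 7.13 M counts and 13338 and 10991 genes with a count, against 15483 to 22966 in the other libraries. The libraries also fell into 2 kinds by the share of counts in the annotated rRNA gene CT010467.1, which was 12.5% to 37.9% in 9 libraries (rRNA-rich: in each in vitro group replicates 1 and 2, and in IVV replicate 3) and 0.187% to 0.714% in 6 (rRNA-poor). All 10 oocyte markers (among them Zp3, Gdf9 and Bmp15) had counts in every group, with a summed level of 12270 to 22590 normalized CPM. The 12 granulosa cell markers summed to 49.2 to 347.8 normalized CPM. They ranged from Nr5a2 and Kitl, with counts in all 15 libraries, to Amh, at 0 counts in 13 of the 15. Fos, Jun and Egr1 are genes that granulosa cells express too. In pooled oocytes, fewer cells with a transcript cannot be told apart from less RNA per cell, and the same holds for adhering granulosa cells, whose part in the values below was not tested.

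Levels were compared between genes as counts per exon length and library total (FPKM, computed from the counts), since the genes differ in length. The mean over the 15 libraries was highest for Dusp1 at 30.8 FPKM, followed by Egr1 at 13.3, Jund at 2.89 and Klf6 at 1.35 FPKM. Fos (0.892), Jun (0.786), Ier2 (0.576), Atf3 (0.372), Junb (0.217) and Myc (0.184) had means under 1 FPKM. Dusp1, Egr1 and Jund had counts in all 15 libraries, and Myc in 8, the fewest. A phosphatase that ends MAP kinase signals and a zinc-finger activator were thus the most abundant of these RNAs, ahead of the AP-1 subunits. Below, levels of a single gene are given as normalized CPM, counts relative to a library total that was scaled by TMM, and a count of 0 allows up to 3 counts, which is 0.0441 to 0.182 normalized CPM in 13 libraries but 0.542 and 0.522 in IVG-NT day 6 replicates 1 and 2.

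The sequences before the transcription start are shown for the AP-1 genes Fos and Junb, whose levels moved together across the libraries, and for Dusp1, the most abundant listed gene. Of the 10 genes, 7 had an entry in the RefSeq promoter table (build GRCm38.p6), and Egr1, Ier2 and Myc had none. Each run is the 250 bases before the start annotated in RefSeq, on the coding strand, 5′ to 3′. The Jund window, chr8:70697489-70697738, does not adjoin the Jund gene as counted, which begins at chr8:70698949. The Dusp1 and Atf3 windows lie within the genes as counted. These windows therefore need not lie before the start of the transcripts counted. Capitals mark the letters TGACG or TGACGTCA, the core and the full cAMP response element (CRE) bound by CREB and ATF proteins, and TATAAA, the TATA box.
Fos, chr12:85473640-85473889, plus strand: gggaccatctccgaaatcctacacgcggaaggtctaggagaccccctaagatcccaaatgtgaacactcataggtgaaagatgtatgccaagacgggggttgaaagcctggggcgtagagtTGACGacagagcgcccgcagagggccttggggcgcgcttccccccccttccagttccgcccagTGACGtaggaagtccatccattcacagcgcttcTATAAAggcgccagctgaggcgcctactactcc
Junb, chr8:84978749-84978998, minus strand: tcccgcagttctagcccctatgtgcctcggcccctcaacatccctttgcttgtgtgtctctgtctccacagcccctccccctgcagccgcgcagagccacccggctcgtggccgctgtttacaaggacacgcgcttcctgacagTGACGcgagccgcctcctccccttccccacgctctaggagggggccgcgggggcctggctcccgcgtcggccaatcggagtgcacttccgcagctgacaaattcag
Dusp1, chr17:26508473-26508722, minus strand: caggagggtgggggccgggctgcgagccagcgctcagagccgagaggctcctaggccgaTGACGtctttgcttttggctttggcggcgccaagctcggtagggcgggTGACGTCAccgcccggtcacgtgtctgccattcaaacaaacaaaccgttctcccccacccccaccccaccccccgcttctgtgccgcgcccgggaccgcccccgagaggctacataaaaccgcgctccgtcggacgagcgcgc
Searched on both strands, the full octamer TGACGTCA stood in the Dusp1 window, beginning 143 bases before the start, and in none of the other 6; 1.55% of 32851 promoters of this length hold it. The core TGACG, which also lies within the octamer, stood in the windows of Fos, with matches at 129 and 66 bases, Junb at 106, Dusp1 and Atf3, that is in 4 of 7 against 17.8% of all promoters. The Fos window held TATAAA 33 bases before the start (12.4% of promoters). The AP-1 letters TGANTCA (6.75%), the EGR letters GCGNGGGCG (4.70%) and the serum response factor CArG box (1.47%) were in none of the 7 windows. CCAAT, the box bound by the factor NF-Y, was in those of Jun, Junb and Klf6 (33.9% of promoters). These are matches of letters in a short window and not measured binding.

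The 3′ untranslated regions were searched for ATTTA, the core of the AU-rich element that marks many short-lived mRNAs. For Fos, Jun and Dusp1, 1 window of 30 bases that holds 2 copies is shown, with ATTTA in capitals.
Fos, bases 632 to 661 of the 3′ untranslated region: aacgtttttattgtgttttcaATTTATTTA
Jun, bases 1028 to 1057: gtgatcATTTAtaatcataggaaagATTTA
Dusp1, bases 84 to 113: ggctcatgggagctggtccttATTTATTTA
ATTTA occurred 7 times in Klf6, 4 times each in Fos, Jun and Dusp1, 3 times in Atf3, 2 times each in Egr1, Junb and Myc, once in Jund and not in Ier2. At least 1 was present in 9 of the 10 genes, against 67.9% of 14384 genes with a 3′ untranslated region of at least 100 bases, and the median was 2.89 per kilobase against 1.31. Dusp1, at 5.80 per kilobase, and Fos, at 4.91, had the highest densities of the 10, and they differed in level, Dusp1 having counts in every library and Fos being at 0 in 4 of them.

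Fos (chr12:85473890-85477273, plus strand, GRCm38), the AP-1 subunit that must pair with a JUN protein, had 2.01, 17.1 and 1.22 normalized CPM in IVV replicates 2, 3 and 4. It had 0.225, 6.85 and 0.264 in IVG day 10 replicates 1, 2 and 3, and 0.501, 3.52 and 0.538 in IVG-NT day 10. At day 6 it had 0.324, 0 and 0.927 in IVG, and 0 in all 3 IVG-NT libraries. One rRNA-rich library led each of the first 3 groups, and group means fell in the order IVV (6.78 ± 8.95, SD, n = 3), IVG day 10 (2.45 ± 3.81), IVG-NT day 10 (1.52 ± 1.73), IVG day 6 (0.417 ± 0.470) and IVG-NT day 6. Each neighbouring pair in this order overlapped.

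Jun (chr4:95049034-95052222, minus strand), the subunit that can pair with itself or with FOS, had 2.93, 13.9 and 0.915 normalized CPM in IVV replicates 2, 3 and 4. It had 0, 13.0 and 2.01 in IVG day 10 and 1.47, 3.18 and 1.05 in IVG-NT day 10. At day 6 it had counts in 1 of 3 libraries of each group, replicate 3, with 8 counts in both (0.118 normalized CPM in IVG and 0.130 in IVG-NT). The split in Jun thus lay between day 10 and day 6: the IVG-NT day 10 libraries stood above all day 6 libraries, and IVG day 10 replicate 1, at 0, was the exception among the day 10 libraries. The antisense gene Junos overlaps Jun exons and had 181 counts in all, against 1308 for Jun, and since it is not stated whether strand was used in counting, reads of both cannot be told apart.

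Junb (chr8:84974484-84978718, minus strand), a JUN protein that often restrains JUN, was low throughout, with 218 counts in all. IVV replicates 2, 3 and 4 had 0.209, 4.73 and 0.244 normalized CPM. IVG day 10 had 0.168, 0.454 and 0.405, and IVG-NT day 10 had 0.118, 0.812 and 0.351. Day 6 libraries had 0.144, 0 and 0.118 in IVG and 0, 0 and 0.228 in IVG-NT. The shallow IVG-NT day 6 libraries at 0 allow up to 0.542 and 0.522, above each day 10 level but the 0.812. Junb exons overlap those of Prdx2 on the other strand, which had 318378 counts, and the Junb values are uncertain for that reason.

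Jund (chr8:70698949-70700616, plus strand), the JUN protein usually present in resting cells, was the only AP-1 subunit among the 10 listed genes with counts in every library. IVV had 3.60, 29.9 and 3.86 normalized CPM, IVG day 10 had 0.927, 0.953 and 4.24, and IVG-NT day 10 had 5.24, 1.32 and 7.06. At day 6 IVG had 1.76, 3.91 and 4.24, and IVG-NT had 0.723, 2.26 and 3.99. Apart from IVV replicate 3, the 14 other values lay between 0.723 and 7.06, and the groups overlapped, as did all neighbours in the order of the means.

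Atf3 (chr1:191170296-191218039, minus strand), a stress-induced member of the ATF family, had 1.47, 0 and 0.935 normalized CPM in IVV replicates 2, 3 and 4. IVG day 10 had 1.24, 1.13 and 1.50, and IVG-NT day 10 had 0.471, 1.08 and 2.08. Day 6 IVG libraries had 0.288, 0 and 1.03, and all 3 IVG-NT day 6 libraries were at 0. Atf3 was thus present in all 6 day 10 libraries, and in IVV it was missing from the library where Fos, Jun, Junb and Jund were highest.

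Egr1 (on chromosome 18), a zinc-finger transcription factor induced through MAP kinase and serum response factor, had 13.4, 66.0 and 11.4 normalized CPM in IVV replicates 2, 3 and 4. IVG day 10 had 151, 165 and 21.2, and IVG-NT day 10 had 70.2, 130 and 21.8. At day 6 IVG had 99.9, 80.3 and 26.9, and IVG-NT had 72.8, 2.09 and 12.7. Its level followed the kind of library: 8 of the 9 rRNA-rich libraries lay above the highest rRNA-poor library (26.9), the exception being IVG-NT day 6 replicate 2, with 12 counts. The medians were 80.3 normalized CPM in the rRNA-rich and 17.3 in the rRNA-poor libraries. None of the other 9 genes was split by kind to this degree, Klf6 coming nearest with 6 of 9 above its highest rRNA-poor level. The order of the group means was IVG day 10 (113 ± 79.4, SD, n = 3), IVG-NT day 10 (73.8 ± 54.0), IVG day 6 (69.0 ± 37.8), IVV (30.3 ± 31.0) and IVG-NT day 6 (29.2 ± 38.1), with overlap between all neighbours.

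Klf6 (chr13:5861482-5870394, plus strand), a Krüppel-like zinc-finger factor, had 4.21, 7.40 and 3.33 normalized CPM in IVV, 9.72, 8.53 and 3.87 in IVG day 10, and 13.3, 11.7 and 5.54 in IVG-NT day 10. In IVG day 6 it had 8.89, 4.69 and 5.03. IVG-NT day 6 replicates 1 and 2 were at 0 and replicate 3 at 4.74. The 13 libraries with counts spanned 3.33 to 13.3, and the zeros in the shallow libraries lay below that range, since 0 counts allow up to 0.542 and 0.522 there.

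Myc (chr15:61985391-61990374, plus strand), which codes for a basic helix-loop-helix factor that drives cell growth, had 0.398, 0 and 0 normalized CPM in IVV replicates 2, 3 and 4. IVG day 10 had 0.477, 1.66 and 0.211, whereas all 3 IVG-NT day 10 libraries were at 0. IVG day 6 had 2.81, 1.03 and 0.441, and IVG-NT day 6 had 0, 0 and 0.456. All 6 IVG libraries without NT-4 had Myc counts, between 12 and 78 per library, while 5 of the 6 libraries with NT-4 had none. In the shallow IVG-NT day 6 libraries a count of 0 allows up to 0.542 and 0.522 normalized CPM, above the 0.441 of IVG day 6 replicate 3, so that a level as low as that one was not detectable there.

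Dusp1 (chr17:26505590-26562128, minus strand), the phosphatase that inactivates MAP kinases, had 52.8, 66.8 and 39.7 normalized CPM in IVV replicates 2, 3 and 4. IVG day 10 had 82.1, 69.2 and 127, and IVG-NT day 10 had 135, 97.7 and 118. At day 6 IVG had 220, 157 and 53.2, and IVG-NT had 125, 35.0 and 150. All 6 day 10 libraries lay above all 3 IVV libraries, while both day 6 groups overlapped IVV. By kind of library, the rRNA-poor values were 127 and 118 at day 10 against 52.8 and 39.7 in IVV. The rRNA-rich values were 69.2 to 135 against 66.8 in IVV replicate 3, the only rRNA-rich IVV library. This split follows from the order over all libraries and is no separate test. Its means ran from 143 ± 84.4 (SD, n = 3) in IVG day 6 through 117 ± 18.8 in IVG-NT day 10, 103 ± 60.7 in IVG-NT day 6 and 92.8 ± 30.5 in IVG day 10 to 53.1 ± 13.6 in IVV, and only the last pair did not overlap. Dusp1 shares exons with Ergic1 on the other strand (12849 counts in all, against 54233 for Dusp1).

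Ier2 (chr8:84661331-84662852, minus strand), a small nuclear protein of the early response, had 1.32, 4.67 and 1.50 normalized CPM in IVV. It had 0.562, 0.522 and 1.41 in IVG day 10 and 0.118, 0.271 and 1.85 in IVG-NT day 10. At day 6 it had counts only in replicate 3 of each group, 34 (0.500 normalized CPM) in IVG and 7 (0.114) in IVG-NT. The order of its means was the same as for Fos, from 2.50 ± 1.88 in IVV to 0.0380 ± 0.0659 in IVG-NT day 6 (SD, n = 3), with overlap between all neighbours.

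**Figure D1:**
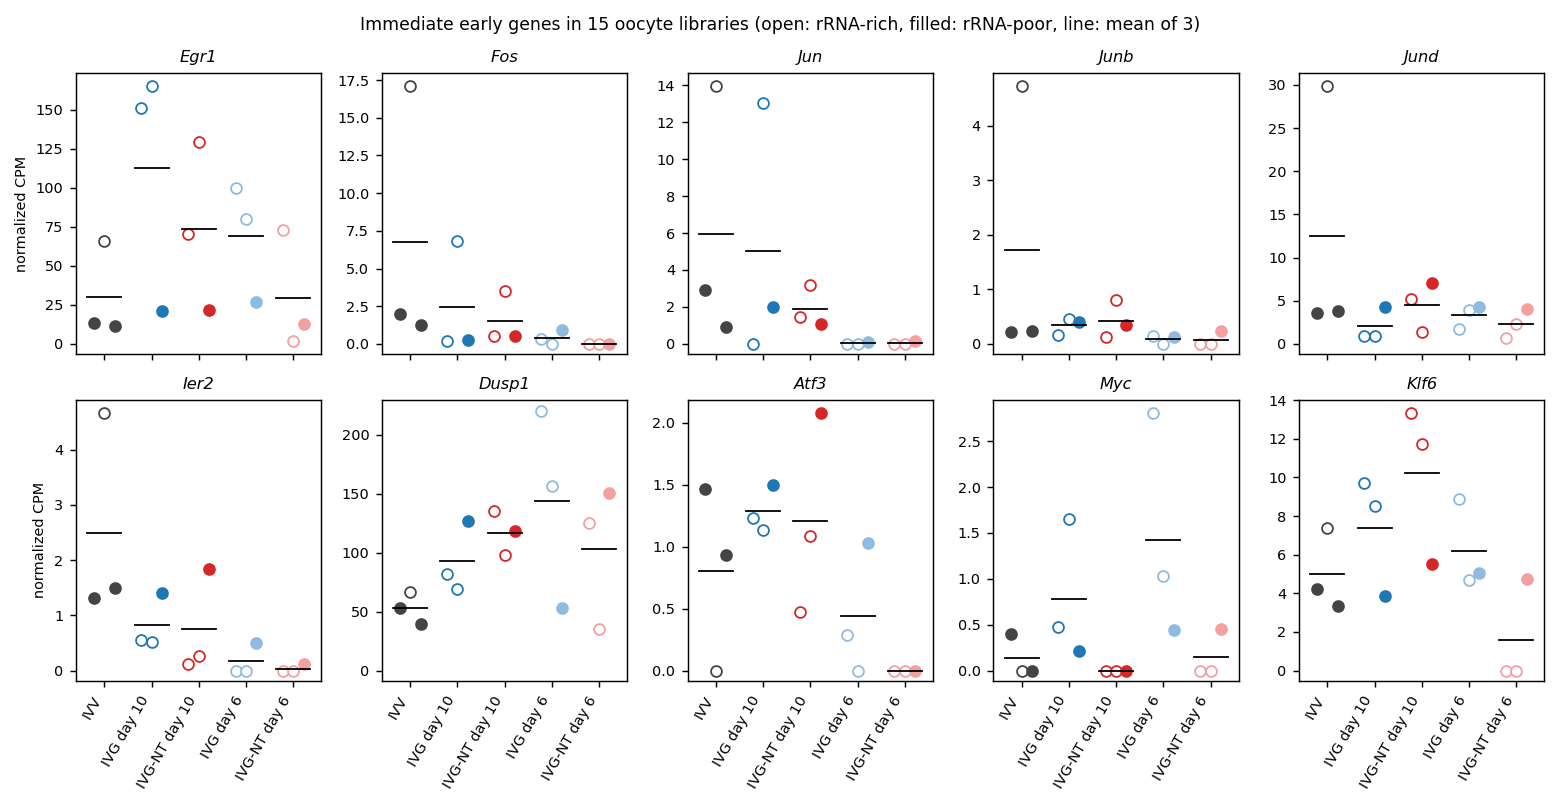
Normalized CPM (vertical axes, linear, a scale of its own in each panel) of the 10 genes in the 15 libraries, by group, with open circles for rRNA-rich and filled circles for rRNA-poor libraries and a line at the mean of 3. Dusp1 in IVV (39.7 to 66.8) lies below both day 10 groups, Myc is at 0 in all 3 IVG-NT day 10 libraries, and IVV replicate 3 is the highest IVV library for 8 of the 10 genes.

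Across the genes, IVV replicate 3, the only rRNA-rich IVV library, was the highest of its group for 8 of the 10 genes and at 0 for the other 2, Atf3 and Myc. In IVG-NT day 6, replicates 1 and 2 had counts for 3 of the 10 genes each (Egr1, Jund and Dusp1), and replicate 3 for 8. IVG day 6 replicate 2, an rRNA-rich library of 23.7 M counts, had counts for 5. The IVV means of Fos, Jun, Junb, Jund and Ier2 were thus led by 1 library, and the libraries with the fewest listed genes were 3 of the 6 day 6 libraries.

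Differences between groups were tested with edgeR's quasi-likelihood test on the raw counts, fitted over all 15 libraries. A gene was called where the log2 fold change was beyond 1 and the unadjusted P under 0.05, the threshold used in the study, and the Benjamini-Hochberg adjusted p over 21009 genes is given beside it. With that adjustment 0 of the 10 genes passed 0.05 in any of the 6 comparisons or in the test of whether the NT-4 effect differed between days, where 0.0% of all genes passed in each. DESeq2's Wald test gave 0 of the 9 listed genes for which it had an adjusted p. Over the 21009 genes it passed 51 to 715, depending on the comparison. The calls below therefore rest on the unadjusted P, which was under 0.05 for 0 genes in IVG day 10 against IVV, 1 in IVG-NT day 10 against IVV, 1 in IVG-NT against IVG at day 10, 2 at day 6, 1 in IVG day 10 against day 6 and 4 in IVG-NT day 10 against day 6. Where a group had no count at all, the fitted fold change depends on the prior count, and the fold between group means is given as a bound instead. Each library of that group was then set to the level of 3 counts in it, while libraries at 0 in the other group stayed at 0.

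In IVG day 10 against IVV oocytes, 0 of the 10 genes were called, against 2.76% of all genes. The smallest P was that of Jund, at a mean of 2.04 ± 1.91 normalized CPM in IVG and 12.5 ± 15.1 in IVV (SD, n = 3), a log2 fold change of -2.61 (SE 1.36, adjusted p = 1 by edgeR). Without IVV replicate 3 the log2 fold change of Jund was -0.897, whereas in a fit with library kind as a term it was -2.86 and Jund was called. The count was 1 without IVV replicate 2 and 1 without IVV replicate 3, and Jund was not the gene called in either. Dusp1 was the single gene whose libraries did not overlap between the groups (11.9% of all genes did not), with a log2 fold change of 0.81 (SE 0.70, adjusted p = 1). Egr1, whose libraries overlapped, had a log2 fold change of 1.90 (SE 1.16, adjusted p = 1), and 1.23 (SE 0.83) in the fit with library kind as a term. The median log2 fold change was 0.16 over the 10 genes and -0.20 over all genes tested.

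In IVG-NT day 10 against IVV, 1 of the 10 genes was called, against 3.29% of all genes. Myc was at least 1.53-fold lower in IVG-NT (adjusted p = 1), with 19 counts in IVV, all of them in replicate 2. The call was lost without IVV replicate 2, when both groups are at 0, and without any 1 of the IVG-NT libraries, and in the fit with a replicate block. Dusp1 was again the single gene without overlap, against 11.6% of all genes, and it was higher in IVG-NT by 1.14 on the log2 scale (SE 0.70, adjusted p = 1). This comparison and the preceding one share the IVV libraries. The median log2 fold change was -1.54 over the 10 genes and -0.19 over all genes. Of 10 theca and stroma markers 2, Col1a2 and Acta2, were called lower in IVG-NT, with a marker sum of 2.71 to 7.38 normalized CPM against 18.9 to 33.4 in IVV; their part was not tested.

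In IVG-NT against IVG at day 10, 1 of the 10 genes was called, against 1.24% of all genes. It was Myc, at 0 counts in IVG-NT and 17, 73 and 12 counts in IVG, at least 9.02-fold lower with NT-4 (adjusted p = 1 by edgeR). It was also the single gene without overlap between the groups (3.59% of all genes). Leaving out any 1 library left Myc called, with the fitted log2 fold change between -8.22 and -6.63. It was also called with library kind as a term (log2 fold change -8.23) and in the replicate block (-7.77), but not in the rRNA-rich libraries alone (-7.70), where 2 libraries a group remained. The other 9 genes had log2 fold changes between -1.40 (Jun, SE 1.89) and 1.15 (Jund, SE 1.30). In the replicate block Jun was at 0.10 (SE 1.09). The median was -0.12 against 0.01 over all genes. Of 10 theca and stroma markers Col1a2 was called lower in IVG-NT, the marker sum being 2.71 to 7.38 normalized CPM in IVG-NT and 1.01 to 41.3 in IVG; its part was not tested.

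In IVG-NT against IVG at day 6, 2 of the 10 genes were called, against 11.6% of all genes, so the share of the listed genes was of the size of the background. Fos was at least 1.12-fold lower in IVG-NT (adjusted p = 0.397) and Atf3 at least 1.18-fold lower (adjusted p = 0.393), each at 0 in the 3 IVG-NT libraries and in IVG replicate 2. No listed gene was without overlap, against 8.45% of all genes. Both calls were lost and the count was 0 without IVG replicate 3, which held 63 of 72 Fos counts and 70 of 78 Atf3 counts. They were also lost without IVG-NT replicate 3, and that of Fos without IVG-NT replicate 2, the count being 1 in either case. Without both shallow IVG-NT libraries, a setting chosen after the data had been seen, 0 genes were called. In those libraries 0 counts allow 0.542 and 0.522 normalized CPM, above the 0.324 of Fos and the 0.288 of Atf3 in IVG replicate 1. Beside these, 3 granulosa cell markers of 11 tested (Fshr, Hsd17b1 and Fst) were called lower. Of 7 macrophage markers tested, 3 (Csf1r, Lyz2 and Tyrobp) were called higher. The summed granulosa level was 49.2 to 120 normalized CPM in IVG-NT and 54.0 to 146 in IVG. The summed macrophage level was 5.05 to 59.6 in IVG-NT and 20.3 to 64.6 in IVG. Csf1r had 0 to 272 counts in the IVG-NT libraries, Lyz2 0 to 22 and Tyrobp 0 to 29. The part of these cells was not tested.

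The NT-4 effect was also compared between days in the same fit. For Atf3 it was higher at day 10 than at day 6 by 6.93 on the log2 scale (SE 3.27, adjusted p = 0.790), the smallest P of the 10 genes. For Myc it differed by -4.84 (SE 2.79, adjusted p = 0.867). In IVG-NT, Atf3 had no count at day 6 and Myc none at day 10. The fitted sizes of both genes in this test therefore depend on the prior count, and no bound was computed for them. Called were 0 of the 10 genes, against 6.37% of all genes. Without IVG day 10 replicate 2, IVG day 6 replicate 2 or IVG-NT day 6 replicate 3 the count was 1, and without IVG day 6 replicate 2 the gene was Atf3, at 7.57 on the log2 scale. The lower Myc level with NT-4 at day 10 was thus not shown to differ from day 6.

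In IVG day 10 against day 6, 1 of the 10 genes was called, against 2.9% of all genes. Jun was higher at day 10 by 6.69 on the log2 scale (SE 2.39, adjusted p = 1), with 688 counts against 8. IVG day 10 replicate 2 held 574 of these counts, and without it the log2 fold change was 4.41 and the count 0. Without IVG day 6 replicate 3 the count was 2. With the replicate block, Jun was at 6.27 and still called. Junb, Ier2 and Atf3 were higher at day 10 without overlap, 3 of 10 against 7.42% of all genes. None of them was called, at log2 fold changes of 1.90 (SE 1.89), 2.24 (SE 1.92) and 1.53 (SE 1.92). The gaps were small. For Junb the lowest day 10 level was 0.17 normalized CPM and the highest day 6 level 0.14. The same levels were 0.52 and 0.50 for Ier2, and 1.13 and 1.03 for Atf3. The median log2 fold change was 1.12 over the 10 genes and 0.05 over all genes. The granulosa markers Inhba and Inhbb were called higher at day 10 too, 2 of 11, and the marker sum was 100 to 348 normalized CPM at day 10 and 54.0 to 146 at day 6, with the highest sum in IVG day 10 replicate 2, the library highest in Fos and Jun in its group; their part was not tested.

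In IVG-NT day 10 against day 6, 4 of the 10 genes were called, 3 higher and 1 lower, against 12.7% of all genes. Fos was at least 4.09-fold higher at day 10 (adjusted p = 0.357), Atf3 at least 3.27-fold higher (adjusted p = 0.357) and Jun higher by 4.79 on the log2 scale (SE 2.26, adjusted p = 0.393). Myc was at least 1.76-fold lower at day 10 (adjusted p = 0.377), all of its 28 day 6 counts being in replicate 3. The 3 comparisons in which Myc was called share the IVG-NT day 10 libraries. Fos, Jun, Ier2, Atf3 and Klf6 were higher at day 10 without overlap, 5 of 10 against 11.0% of all genes, and Ier2 and Klf6 were not called, at log2 fold changes of 3.67 (SE 2.12) and 2.63 (SE 1.55). With the libraries at 0 set to the level of 3 counts, 2 of these genes, Jun and Klf6, were without overlap, since the shallow day 6 libraries allow more than some day 10 levels of Fos, Ier2 and Atf3. The median was 2.37 over the 10 genes and 0.40 over all genes. With each gene that was at 0 in a group set to its bound, the median of the 10 genes was 1.87 here, -0.48 in IVG-NT against IVG at day 6 and -1.03 in IVG-NT day 10 against IVV, and it did not change in the other 3 comparisons.

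These day 6 calls were sensitive to single libraries. The count was 2 without IVG-NT day 10 replicate 1, 2 or 3, and 2 without IVG-NT day 6 replicate 3. Jun lost its call without any 1 of the 6 libraries, Myc without any library but the 2 shallow ones, and Fos without IVG-NT day 6 replicate 3. Without both shallow libraries the count was 2, and in the fit with library kind as a term it was 2, Fos at 7.95 and Atf3 at 9.59 on the log2 scale. The granulosa markers moved in the same direction, 6 of 11 tested being called higher at day 10 (Fshr, Inha, Inhba, Inhbb, Hsd17b1 and Fst). Their sum was 129 to 255 normalized CPM against 49.2 to 120. The macrophage markers Csf1r and Tyrobp, 2 of 7, were called lower, with a marker sum of 5.24 to 35.2 against 5.05 to 59.6. The median log2 fold change of the 7 was 0.13. Csf1r had 0 to 272 counts in the day 6 libraries and Tyrobp 0 to 29. The part of these cells was not tested.

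**Figure D2:**
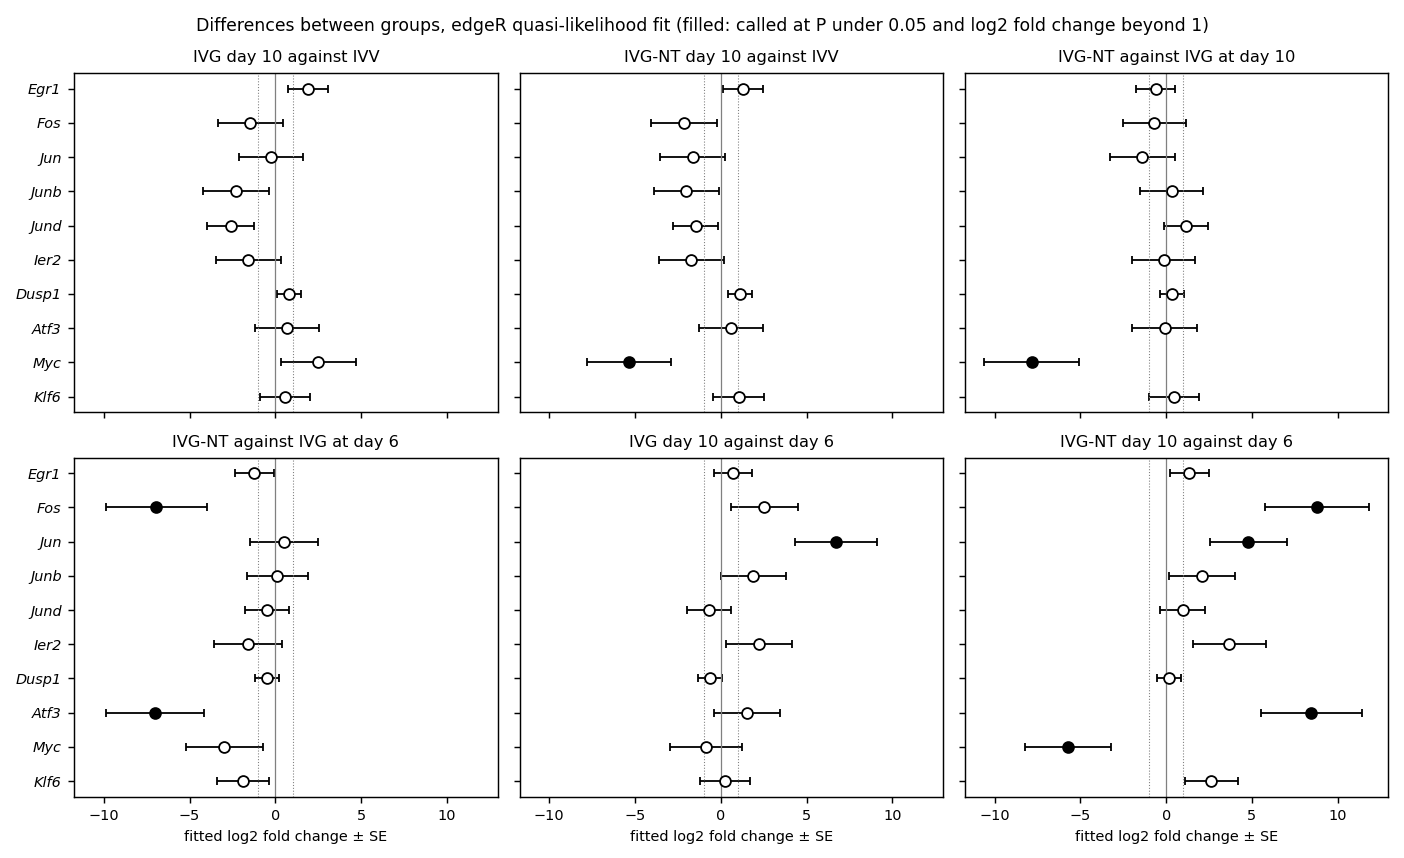
Fitted log2 fold change with its SE (horizontal axis) of the 10 genes in 6 comparisons by edgeR, with dotted lines at -1 and 1 and filled points for genes called at the unadjusted threshold. Myc is called lower in 3 panels that include IVG-NT day 10, where it had no count, and the values with the widest bars are those against a group at 0, where the fitted size is no bound.

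The levels of Fos, Jun, Junb and Ier2 varied together over the 15 libraries. On log2 normalized CPM, Pearson's r was 0.85 between Fos and Jun, 0.83 between Fos and Junb, 0.80 between Jun and Junb, 0.78 between Junb and Ier2 and 0.72 between Fos and Ier2. In the 9 rRNA-rich libraries alone, r was 0.93 between Fos and Jun and 0.95 between Fos and Junb. Dusp1, at -0.34 with Fos and -0.23 with Jun, and Egr1, at 0.33 with Fos and 0.15 with Jun, did not follow them as closely. These values describe libraries that share groups, depth and kind, and the shallow libraries with several genes at 0 enter each of them.

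**Figure D3:**
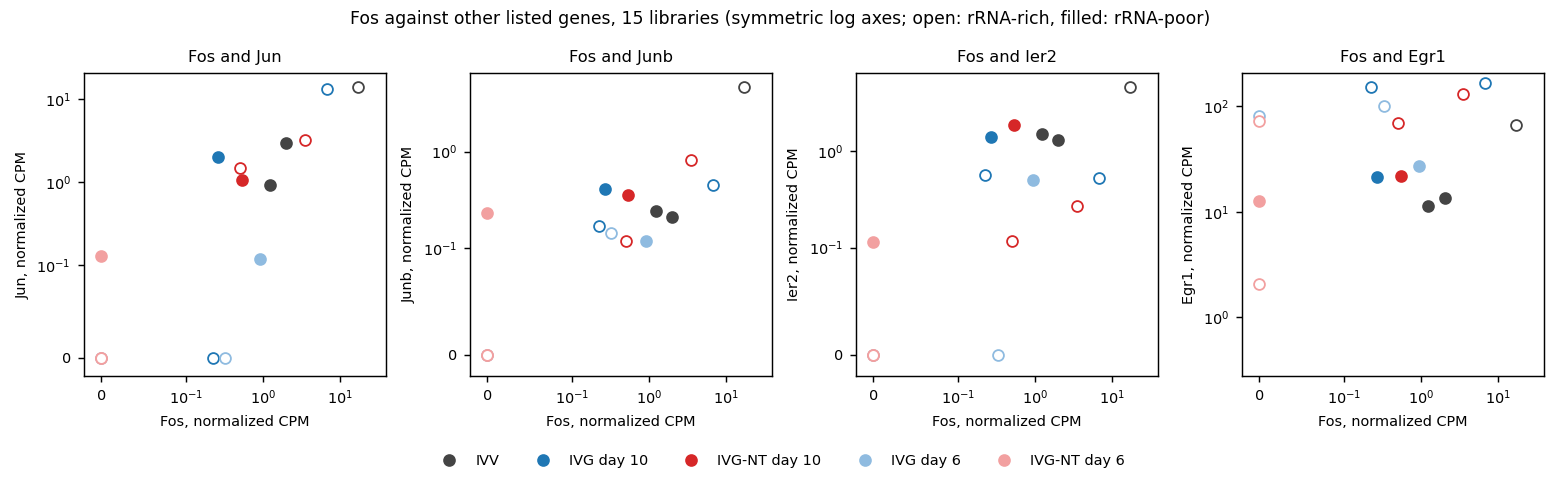
Normalized CPM of Jun, Junb, Ier2 and Egr1 (vertical axes) against Fos (horizontal axis) in the 15 libraries, on symmetric log axes that are linear near 0, with colors for the groups and open circles for rRNA-rich libraries; points at 0 on both axes lie on each other. IVV replicate 3 is at the upper right of the first 3 panels (Fos 17.1, Jun 13.9, Junb 4.73, Ier2 4.67), whereas Egr1 reaches 151 at a Fos level of 0.225 in IVG day 10 replicate 1.

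Among all tested genes, those most like the 3 most abundant listed genes by CPM were named. Egr1 was most like Zfp646 (r = 0.99) and Cbx2 (r = 0.98), Klf6 was most like Platr30 (r = 0.995) and Asna1 (r = 0.994), and Dusp1 was most like Mrgbp and Narfl (r = 0.80 each), over 15 libraries. With the means of the 2 kinds of library removed, the r of Egr1 with Zfp646 was 0.99. Klf6 was at 0 in the shallow IVG-NT day 6 replicates 1 and 2, and both libraries enter its r.

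Of 47 related early response genes, a list of other FOS, EGR, DUSP, NR4A and KLF family members and further early targets, 39 were tested. None was called in the comparisons of day 10 with IVV or of IVG-NT with IVG at day 10. At day 6, 3 were called higher in IVG-NT (Fosb, Maff and Hes1) and 2 lower (Zfp36l1 and Id3). These 5 of 39 are 12.8%, beside 11.6% of all genes. Fosb, an AP-1 subunit, had 428 normalized CPM (2459 counts) in the shallow IVG-NT day 6 replicate 2, 0 in replicate 1 and 1.35 in replicate 3, against 0.618 to 2.30 in IVG day 6. In IVG day 10 against day 6, Gadd45g was called higher (2.56%, beside 2.9% of all genes), and in IVG-NT day 10 against day 6 Klf4 was called higher and Fosb, Nr4a3 and Ccn2 lower (10.3% of the 39, beside 12.7% of all genes). Nr4a3 and Ccn2 had counts in 1 IVG-NT day 6 library each. The median log2 fold change of the tested genes was -0.64 in IVG-NT against IVG at day 6 and 1.0 in IVG-NT day 10 against day 6, beside -0.27 and 0.40 over all genes.

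Of 36 upstream regulators and partners (kinases of the MAP kinase cascade, serum response factor cofactors, CREB proteins, and MAX and its partners), 34 were tested. In IVG day 10 against IVV, 2 (5.88%, beside 2.76% of all genes) were called higher: Crebbp, the CREB co-activator, by 1.85 on the log2 scale (SE 0.77, adjusted p = 1), and Mrtfb, a serum response factor co-activator, by 1.86 (SE 0.85, adjusted p = 1). None was called in IVG-NT day 10 against IVV or in IVG-NT against IVG at day 10. Among those called at day 6 were Nfe2l2, higher in IVG-NT, and Map2k4, Max and Mnt, lower, and Mnt, a repressor that pairs with MAX, was called higher and Nfe2l2 lower in IVG-NT day 10 against day 6. The shares called were 14.7% and 5.88%, beside 11.6% and 12.7% of all genes. The adjusted p was at least 0.357 for every gene of both lists in these calls.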

How the data were processed

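The authors trimmed the reads, aligned them to mm10 with HISAT2 and quantified transcripts with StringTie; each deposited file holds 1 library's raw, unnormalized counts by Ensembl gene. The counting tool, its use of strand and the annotation release are not given in the sources used here. The per-library files were used, and a table of the whole series holding the same values was not. Groups and replicate numbers came from the sample titles, and each group's libraries came from replicated experiments.

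The analysis used edgeR 4.0.16 in R 4.3.3. Genes were kept by filterByExpr with a minimum count of 10 (21009 genes), scaled by TMM, and tested with glmQLFit and glmQLFTest over 5 group means in all 15 libraries. A gene was called at a log2 fold change beyond 1 with unadjusted P under 0.05, and Benjamini-Hochberg adjusted values were computed over all genes tested. The script was tested on simulated data. FPKM was computed here from the counts and the exon lengths of GENCODE vM21. For correlations, log2 CPM was taken with 2 as the prior count. DESeq2 1.42.0, a fit without the filter, other scaling, a replicate block, the kind of library as a covariate (limit of 5% rRNA counts) and leaving out libraries were alternatives.

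Correlations of same-numbered deviations from the group means were 0.370, 0.413 and 0.732 in IVG-NT against IVG at day 10. They were 0.230, 0.147 and 0.538 in IVG day 10 against day 6. In the comparisons with IVG-NT day 6 they were 0.0833, 0.107 and 0.328 against IVG, and 0.0803, 0.0663 and 0.260 against IVG-NT day 10. In vitro, replicate number and library kind go together, so these values cannot show pairing by experiment.

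Total counts of 5.95 to 55.6 M set the floor of 3 counts per library. SMART-Seq2 has no molecular identifiers, so floors cover counting error only. Named were all 10 genes, with a fold change and test for each called gene and for the smallest P in each comparison, the called genes of the related lists except 1 that is not reported here, and the 2 most alike genes of the 3 most abundant listed ones; genes without overlap, and Egr1 against IVV, were named beyond that rule, after their values were seen. The genes and lists were chosen with earlier results of these data known.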

Additional observations from a re-analysis of the deposited data

How the results depend on the processing

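The counts of listed genes called moved with the processing as follows, in the order IVG day 10 against IVV (0), IVG-NT day 10 against IVV (1), IVG-NT against IVG at day 10 (1), IVG-NT against IVG at day 6 (2), IVG day 10 against day 6 (1), IVG-NT day 10 against day 6 (4) and the difference of the NT-4 effect between days (0). DESeq2's size factors in the edgeR fit and leaving out the rRNA gene each gave 3 for the sixth, where Jun was not called, and left the other 6 counts as they were. Without the filter on low counts the second was 0, the fourth 1 and the sixth 2. DESeq2's Wald test gave 1 for the first and 0 for the second. Fits on only the groups compared gave 0 for the fourth and 0 for the fifth, with 5 and 8 genes tested, and 3 for the sixth. Fos and Atf3 in the fourth, Jun in the fifth and Myc in the second and sixth were not tested there. Those fits therefore say nothing on these calls. The second count stayed at 1, with 9 genes tested, and the gene called was not Myc. A fit on the 4 in vitro groups gave 1 for the last. The replicate block gave 0 for the second, where it is not stated that the numbers pair the libraries (deviation correlations -0.329 and -0.522). It gave 3 for the sixth, where the call of Myc ended, and left the other counts as they were. The kind of library as a covariate gave 1, 0 and 2 for the first, second and sixth and 1 for the last. The rRNA-rich libraries alone gave 1, 0, 0, 1, 0, 1 and 1. Leaving out 1 library gave ranges of 0 to 1, 0 to 1, 1 to 1, 0 to 3, 0 to 2, 2 to 4 and 0 to 1. Without both shallow IVG-NT day 6 libraries, a setting chosen after seeing the data, the fourth count was 0 and the sixth 2. No called gene changed direction, but genes that were not called did, among them Jun in IVG-NT against IVG at day 10 (-1.40, and 0.10 with the replicate block) and Egr1 in IVG-NT day 10 against IVV (1.29, and -0.11). The cause of the changes was not tested. The shallow libraries limit what a count of 0 can show. In the main fit the p-values rest on a spread shared by all 15 libraries, each a pool, and not on that of the 3 pools of a group.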
